A study of Canis lupus familiaris with 12 samples.

Results

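Cytosolic ribosomal proteins are the protein subunits of the ribosome that works outside the mitochondria. The transcripts that encode them were followed in MDCK cells, an established line of dog kidney epithelial cells, with and without Yoda1, a chemical agonist of Piezo1, a channel that opens under membrane tension. Gene IDs were taken as members when the symbol paired with them began with RPL or RPS followed by a number or P, or was RPSA. Kinases and other genes that share those letters were left out, and a mean of at least 1 TPM (a level per transcript length, scaled to the same total in each library) over all libraries was required. Of the 31121 gene IDs in the tables, 88 matched by letters and 82 also reached the minimum. They carry 72 symbols, and 8 of these symbols stand on more than 1 ID. The rule uses names and mean levels, not differences between groups, but it was chosen with earlier results of these data known.

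The series asks how Piezo1 activation bears on gap closure in an epithelium. Per the labels and the sample sheet, it holds 12 polyadenylated RNA libraries of MDCK cells in 4 groups of 3. T1 received 25 µM Yoda1 for 12 h and T2 the same dose for 24 h. C1 is the control sampled at 12 h and C2 the control sampled at 24 h, both without Yoda1, and what vehicle they received is not stated in those sources. All 12 libraries came from 1 cell line grown in the same serum-containing medium, with no genetic change named. The labels do not say that replicates were separate cultures, so p-values reflect spread among libraries that may be technical only. Library totals ran from 20709218 to 38889592 counts. The epithelial label was borne out by the epithelial adhesion gene CDH1 at 268.62 to 497.85 TPM, while the leukocyte marker PTPRC reached at most 0.03 TPM and the fibroblast marker LUM was at 0 in every library. The summed markers of other cell types reached at most 2.18 TPM for fibroblasts, 6.06 for endothelial cells and 2.04 for leukocytes. The summed TPM of the 6 epithelial markers found was 2172 to 2479 in C1 and 1680 to 1891 in T1, and 2298 to 2449 in C2 and 1420 to 1576 in T2; its part in the members' values was not tested. These are bulk samples, in which fewer cells of a type and less RNA per cell cannot be told apart.

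A ribosome has a small subunit, which reads the messenger RNA, and a large subunit, which joins amino acids, and each is built from ribosomal RNA and many proteins that are needed in matching amounts. Their messenger RNAs are among the most abundant in growing cells and begin with a terminal oligopyrimidine (TOP) tract, through which mTORC1 and the RNA-binding protein LARP1 control mainly their translation. Ribosomal RNA is made by RNA polymerase I in the nucleolus, where a large set of assembly factors joins it to the proteins, and some ribosomal proteins left outside ribosomes bind MDM2 and so stabilise p53.

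The members covered most of the ribosome. A list of 77 core ribosomal protein symbols was matched by name, and 68 were among the members. The other 9 symbols were RPS3A, RPS15, RPS19, RPL36, RPL38, RPL39, RPL41, RPLP1 and RPLP2. The ID paired with RPS3A was left out by its level, and the remaining symbols had no ID paired with them. As 18099 IDs carry no symbol, these genes may be among them, and the level of the RPS3A ID may not be that of the core gene. By subunit, 30 IDs belong to the small subunit, 48 to the large subunit and 4 to paralogs, which are separate genes that encode relatives of a core protein: RPL7L1, RPL22L1, RPS27L and RPL36AL. The 6 IDs below the minimum were 1 each of RPL10L, RPL21, RPL23A and RPS3A and 2 of RPSA, with the RPS3A ID nearest to it at a mean of 0.927 TPM. The lowest ID above it was a further RPL34 ID at 8.61 TPM. All 82 members passed the filter on low counts, and with them 14169 genes were tested.

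On the TPM scale the ribosomal protein transcripts made up 15.3% ± 1.1 (SD, n = 3) of the total in C1, 15.2% ± 0.401 in T1, 15.0% ± 1.45 in C2 and 15.5% ± 0.66 in T2. The 4 groups overlapped, and the spread inside C2 was wider than any distance between group means. Because these transcripts are short, the same members took only 3.88% to 5.26% of the counts in a library. Their median level was 1882 TPM, against 16.9 TPM for all tested genes, and 27 of the 50 most abundant genes and 50 of the most abundant 100 were members.

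RPS2, a small subunit protein near the entry of the messenger RNA channel, had the highest level, with a mean of 5478 TPM and a range of 5015 to 6034 over the 12 libraries. RPS24, which is needed for processing of the small subunit's RNA, followed at 4564 TPM (4033 to 4942). RPL23 had 4189 TPM (3769 to 4404), RPLP0, the base of the stalk that recruits translation factors, had 4044 TPM (3362 to 4410), and RPL37 had 3963 TPM (3400 to 4314). RPS2 lay above the range of the other 4 in every library, while RPS24, RPL23, RPLP0 and RPL37 had ranges that overlapped. Taking the most abundant ID of each of the 68 core symbols, the middle of the distribution was narrow: the lower quartile was 1404 TPM, the median 2116 and the upper quartile 2973, a 2.12-fold span. The lowest core symbols were RPL22 at 233 TPM, RPL34 at 269, RPL15 at 378, RPL21 at 407 and RPL9 at 413. Both subunits were found along the whole upper range, as the plot of levels shows.

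**Figure D1:**
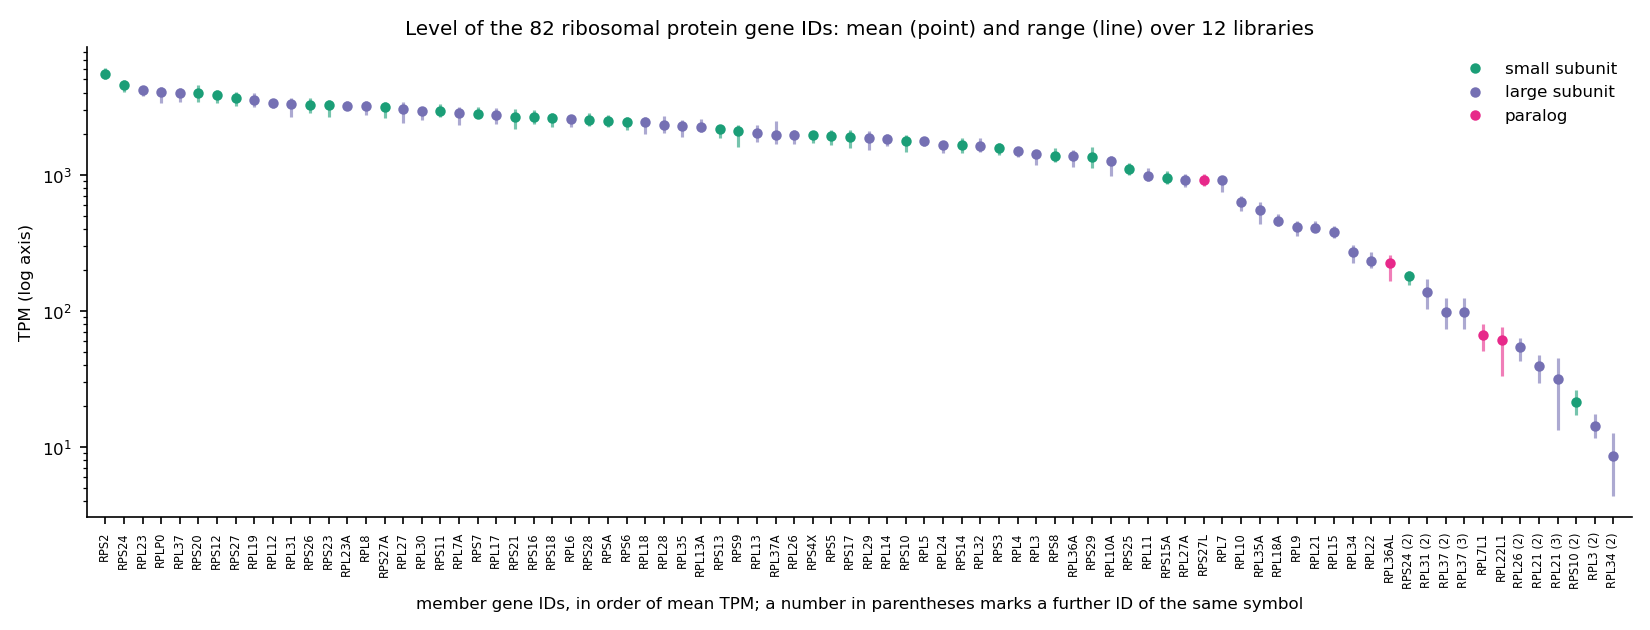
Mean TPM (point) and lowest to highest library (line) of each of the 82 ribosomal protein gene IDs over 12 libraries, on a log axis, coloured by subunit or paralog. Levels fall slowly from 5478 TPM for RPS2 to about 1000 TPM across 56 IDs, and the 10 IDs under 100 TPM are mostly further IDs of a symbol.

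The low end was made of paralogs and of further IDs of a symbol. Of the 10 members under 100 TPM, 8 were further IDs of a symbol whose most abundant ID lay higher, and the other 2 were RPL7L1 and RPL22L1. The 10 further IDs together held 0.448% of the members' summed TPM. Ribosomal protein genes have many processed copies in mammalian genomes, and the counting tool RSEM divides reads between near-identical sequences, so these levels are uncertain. The clearest case is RPL37: ENSCAFG00845008734 and ENSCAFG00845011502 had the same count in every library, at a mean of 97.1 TPM, and cannot be told apart. The 3 RPL21 IDs had means of 407, 39.5 and 31.5 TPM, and the last of them, ENSCAFG00845018554, varied most of all members between replicates, from 13.2 TPM in C1 replicate 1 to 45.3 TPM in T2 replicate 2. The 4 paralogs together held 0.833% of the summed TPM.

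Members moved as a block from library to library. Within groups, the SD of log2(TPM + 1) had a median of 0.112 over the 82 members, which was close to the 0.107 of the 1694 other genes at 100 TPM or more. After the median deviation of the members was subtracted from each library, the median SD of the members was 0.0463. In C2 replicate 2 all 82 members lay below the mean of their group, with a median of -0.17 on the log2 scale. In C1 replicate 2, 79 of 82 lay above it (median 0.11), in C2 replicate 3 also 79 (median 0.10), and in T2 replicate 2 there were 78 (median 0.07). In C1 replicate 3 and in T2 replicate 1, 77 of 82 lay below, with medians of -0.08 and -0.07. The T1 libraries were nearest to each other, with medians of -0.03, 0.04 and -0.01.

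Transcript length moved with these shifts in several libraries. All 82 members were shorter than the median tested gene, on a relative scale taken from counts and TPM, and 73 were below the lower quartile. The Spearman correlation of a gene's deviation with its length was taken over all 14169 tested genes, a description over genes of 1 library each. It was -0.38 in C1 replicate 2, 0.32 in C1 replicate 3, 0.34 in T1 replicate 1 and -0.34 in T1 replicate 2. At 24 h it was -0.26 in C2 replicate 3, 0.29 in T2 replicate 1 and -0.28 in T2 replicate 2. In the rest it ran from -0.14 in T2 replicate 3 to 0.16 in C1 replicate 1. The 1353 shortest non-members had a median deviation of 0.05 in C1 replicate 2, against 0.11 for the members. In C2 replicate 2 the correlation with length was 0.12, and the shortest non-members were at -0.02 while the members were at -0.17. The part of length in the members' shifts was not tested beyond a fit with the length slope of each library as a covariate, given with the comparisons.

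**Figure D2:**
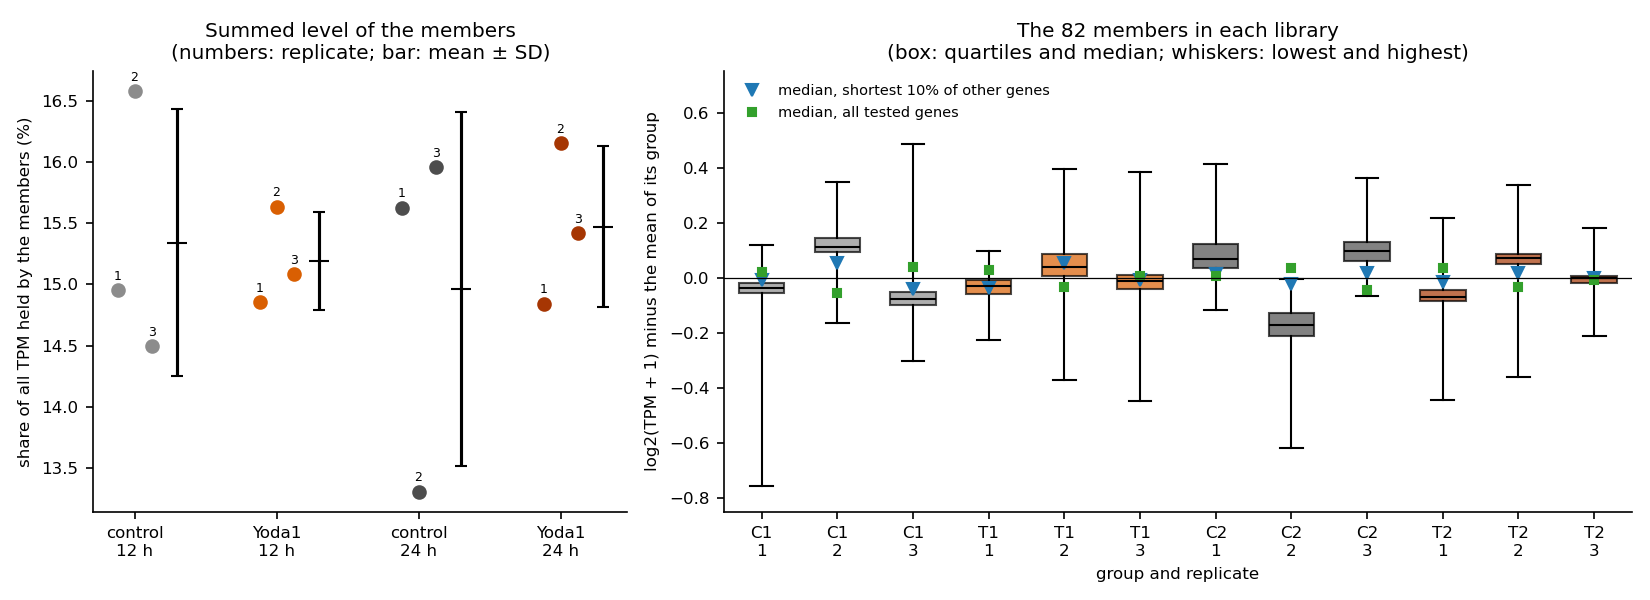
Left, share of all TPM (%) held by the 82 members in each library, with group mean ± SD (n = 3; the axis does not start at 0). Right, deviation of the members' log2(TPM + 1) from their group mean in each library (boxes and whiskers), with the median of the shortest 10% of other genes and of all tested genes; in C2 replicate 2 the whole range of members lies below 0 at a median of -0.17.

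The balance between subunits kept within a narrow range. The ratio of summed TPM of large subunit members to that of small subunit members ran from 1.06 to 1.12 over the 12 libraries. Its mean was 1.088 ± 0.016 in C1, 1.106 ± 0.00969 in T1, 1.059 ± 0.000813 in C2 and 1.0989 ± 0.00248 in T2 (SD, n = 3). The 3 C2 libraries lay below the other 9, although their summed levels differed most among themselves. At 24 h the ratio was thus higher in every T2 library (1.096 to 1.101) than in every C2 library (1.058 to 1.060), while T1 and C1 overlapped. The difference in this ratio was not tested.

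The first comparison asked which ribosomal protein transcripts differed after 12 h with Yoda1. No member was called (edgeR's quasi-likelihood test, adjusted p under 0.05), against 6.99% of all tested genes (3.01% higher and 3.97% lower). Only RPS27L had an unadjusted p under 0.05, and DESeq2 and limma voom called no member either. The log2 fold change of T1 against C1 was negative for 72 of 82 members, with a median of -0.09 and quartiles of -0.12 and -0.05, while the median of all tested genes was 0.01. The 95% confidence interval of 73 members lay wholly within 0.5 on the log2 scale to either side of 0, as did that of 53.6% of all tested genes.

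That small shared negative value depended on 1 library. Without C1 replicate 2, in which the members were high, the median at 12 h was 0.01, and without T1 replicate 2 it was -0.16. On log2(TPM + 1) it was -0.02, and with the length slope of each library as a covariate it was -0.02. By replicate number, the median ratio of T1 to C1 over members was -0.12, -0.14 and 0.01, and the last pair had 37 members lower and 45 higher. The replicate numbers of C1 and T1 were taken as pairs on the basis of the data, and the fit with the replicate block in these 6 libraries called 14 members, 1 higher and 13 lower. That fit called 32.3% of all genes it tested, and 15.8% as lower, and 13 lower members of 82 are close to that background. The 13 were RPL22, RPL22L1, RPL23A, RPL31, RPL32, RPL35A, RPS16, RPS21, RPS26, RPS27L, RPS28 and 2 IDs of RPL21, and the higher one was RPL7L1. With the block in a fit of all 12 libraries, no member was called at 12 h.

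The core proteins chosen by name, for roles in or outside the ribosome, gave small values at 12 h. RPL5 and RPL11, which form a particle with the ribosomal 5S RNA and bind MDM2, had log2 fold changes of -0.09 ± 0.09 (SE) and -0.08 ± 0.09. RPS6, the target of S6 kinase, had -0.12 ± 0.11, from 938, 1134 and 912 CPM (counts scaled to the library size after TMM) in C1 to 862, 976 and 903 CPM in T1. Replicates 1 and 3 of T1 lay just under the C1 range and replicate 2 inside it. RPL10, which completes the peptidyl transferase centre, had -0.05 ± 0.12, RPL3, a neighbour of that centre, -0.06 ± 0.10, RPL13A, which also acts in interferon-induced translational silencing, -0.07 ± 0.11, and RPSA, also known as the laminin receptor precursor, -0.11 ± 0.11. RPS27A, made as a fusion with ubiquitin, had -0.04 ± 0.11, RPLP0 0.01 ± 0.11 and RPS18 -0.03 ± 0.12. None of these was called, with adjusted p from 0.563 for RPS6 to 0.958 for RPLP0.

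Groups of libraries that did not overlap were also few at 12 h. In 5 members every T1 library was below every C1 library in CPM, against 16.3% of all tested genes, and in RPL7L1 every T1 library was above, against 16.4% of all. The 5, named after their values were seen, were RPL5, RPS3, RPL22, RPL22L1 and RPL21 ENSCAFG00845025858. RPL22, a large subunit protein that also binds RNA outside the ribosome, had 276, 340 and 266 CPM in C1 and 246, 263 and 262 CPM in T1, a log2 fold change of -0.19 ± 0.12 (adjusted p = 0.353). The lowest C1 library and the highest T1 library were close, and the highest C1 value was that of replicate 2. The extreme fold changes at 12 h belonged to low IDs with wide errors: the second RPL31 ID at -0.33 ± 0.22, RPL21 ENSCAFG00845011960 at -0.31 ± 0.17 and RPL21 ENSCAFG00845018554 at 0.21 ± 0.31. RPL15, among the members with the smallest spread, had 0.09 ± 0.08.

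The second comparison asked the same after 24 h. Of 82 members 1 was called, RPL7L1, which was higher in T2 than in C2, against 18.6% of all tested genes called in either direction and 8.96% called higher. The other member with an unadjusted p under 0.05 was RPL22L1. The log2 fold changes of all members had a median of 0.01 with quartiles of -0.04 and 0.07, against a median of -0.01 and quartiles of -0.24 and 0.18 over all tested genes. Of the 82, 49 were positive and 33 negative, and the confidence interval of 73 lay within 0.5 of 0. Among all tested genes 48.5% had such an interval. In CPM only RPL7L1 had every T2 library above every C2 library, against 16.6% of all tested genes, and no member had every T2 library below, against 16.2%. Without C2 replicate 2, in which the members were low, the median was -0.09, and without C2 replicate 3 it was 0.09.

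The same core proteins chosen by name had values near 0 at 24 h. RPL5 had a log2 fold change of -0.05 ± 0.09 and RPL11 of 0.02 ± 0.09. RPS6 had 0.02 ± 0.11, RPL3 0.06 ± 0.10, RPL10 -0.07 ± 0.12, RPL13A -0.08 ± 0.11, RPSA -0.10 ± 0.11, RPS27A 0.09 ± 0.11, RPLP0 0.07 ± 0.11 and RPS18 0.00 ± 0.12. RPS14, a small subunit protein at the decoding region's platform, had the most negative value of all members, -0.20 ± 0.11 (adjusted p = 0.251). Its level was 572, 506 and 648 CPM in C2 and 458, 555 and 492 CPM in T2, and the groups overlapped. It was called only with the library median of the members as a covariate, a fit chosen after seeing the data that called 27.2% of all genes and 3 members. RPS2 had -0.12 ± 0.11, with 1259, 1327 and 1574 CPM in C2 and 1174, 1352 and 1306 CPM in T2.

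**Figure D3:**
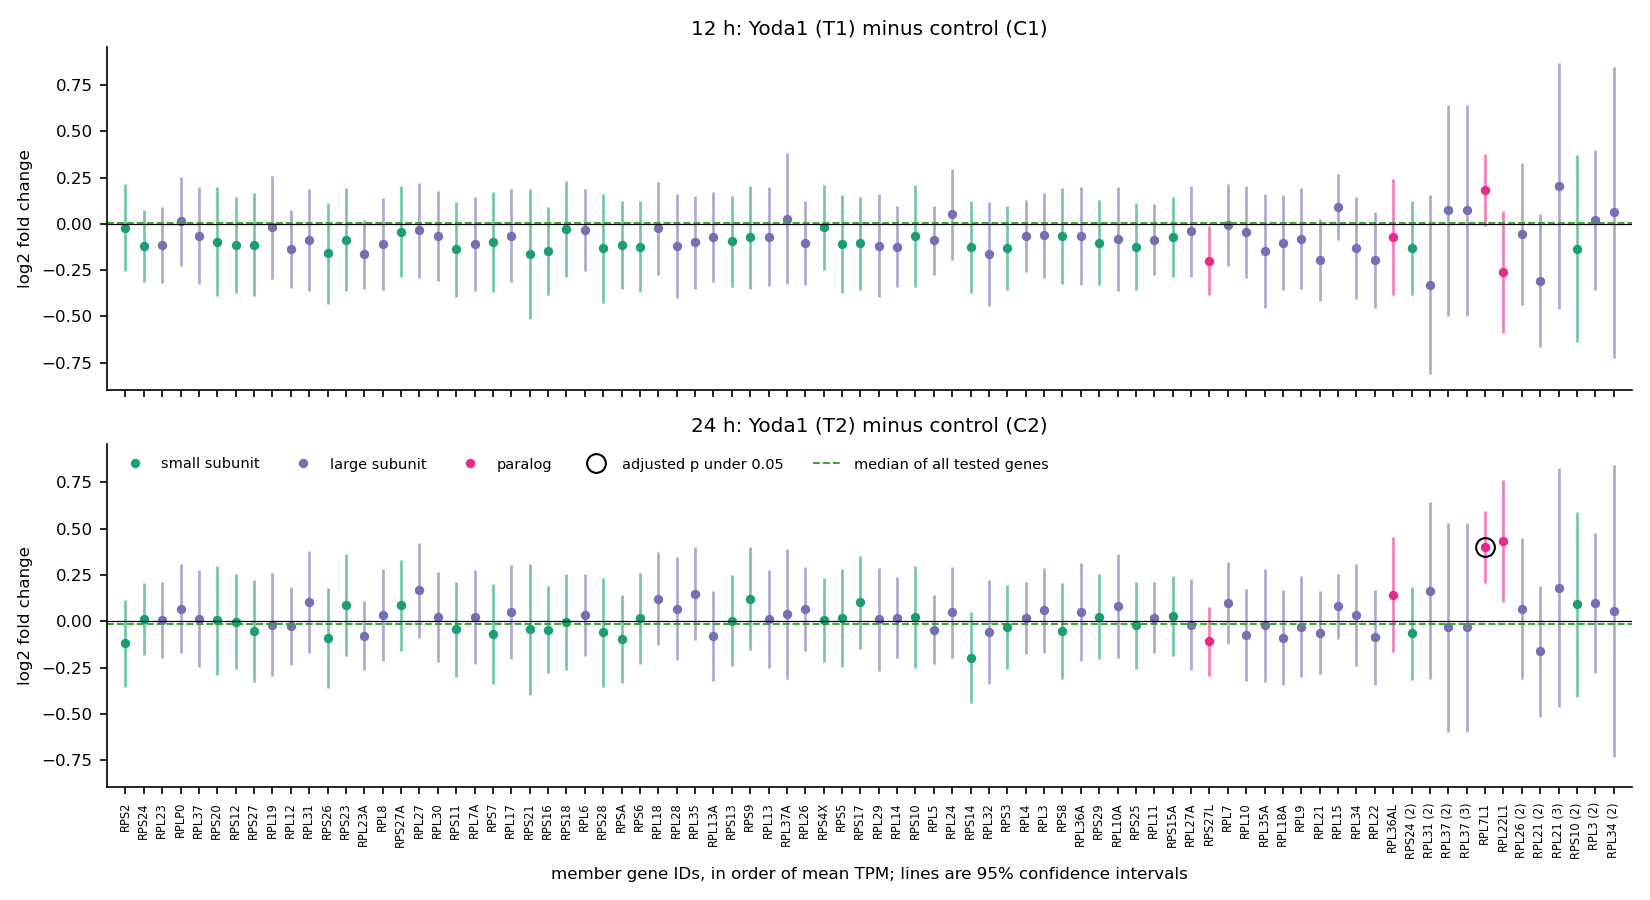
Log2 fold change with 95% confidence interval of the 82 members at 12 h (top) and 24 h (bottom), ordered by mean TPM, with the median of all tested genes as a dashed line. Core subunit genes lie close to 0 at both times, with medians over all members of -0.09 and 0.01, and the circled RPL7L1 at 24 h is the member with an adjusted p under 0.05.

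The 4 paralogs did not move together. RPL7L1 (ENSCAFG00845006742), a relative of RPL7 that acts in large subunit assembly, had 71.7, 64.4 and 71.1 CPM in C1 and 81.7, 76.7 and 76.9 CPM in T1. In C2 it had 67.0, 52.9 and 58.8 CPM and in T2 74.1, 78.3 and 83.7 CPM. Every treated library was above every control library of its time. It rose 1.32-fold at 24 h (log2 fold change 0.40 ± 0.09, 95% confidence interval 0.21 to 0.60, edgeR adjusted p = 0.00909). At 12 h the value was 0.18 ± 0.09 (adjusted p = 0.237), and the difference between the times was 0.22 ± 0.13 (adjusted p = 0.604). Its levels in T1 and T2 were nearly equal, with a log2 difference of 0.00 ± 0.09, and C2 against C1 was -0.21 ± 0.09 (adjusted p = 0.378).

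The 24 h call of RPL7L1 held in 23 of 26 alternative fits, with adjusted p from 0.000477 to 0.106. These fits share most of their data and are not independent checks. Those without a C1 or T1 library keep every library of the comparison. The call was lost without T2 replicate 3 (0.36, adjusted p = 0.0527), in the 6 libraries of the comparison alone (adjusted p = 0.0538) and with a replicate block in those 6. Its relative RPL7, a core large subunit protein of 907 TPM on average, had log2 fold changes of 0.00 at 12 h and 0.10 at 24 h. RPL7L1 was far below it, at 66.6 TPM.

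RPL22L1 (ENSCAFG00845023141), a relative of RPL22 with its own roles in RNA binding and splicing, differed among the 4 groups as a whole. It had 44.2, 43.4 and 43.4 CPM in C1 and 35.8, 38.8 and 34.7 CPM in T1. In C2 it had 32.6, 19.2 and 24.9 CPM and in T2 29.7, 38.2 and 36.0 CPM. All C2 libraries were below all C1 libraries, while C2 and T2 overlapped. The test of any difference among groups called 2 members, RPL7L1 (adjusted p = 0.0184) and RPL22L1 (adjusted p = 0.0199), against 18.2% of all tested genes. RPL7L1 lost that call without C2 replicate 3 or T2 replicate 3 (adjusted p up to 0.0584) and RPL22L1 without C1 replicate 1 or C2 replicate 3 (up to 0.065). No single comparison was called for RPL22L1: the log2 fold change was -0.26 ± 0.15 at 12 h (adjusted p = 0.325), 0.43 ± 0.15 at 24 h (adjusted p = 0.0637) and -0.77 ± 0.15 for C2 against C1 (adjusted p = 0.0809).

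The opposite signs of RPL22L1 at the 2 times gave a difference between responses of 0.70 ± 0.22 with an unadjusted p of 0.00654 and an adjusted p of 0.27. The 24 h value was called in 7 of 26 alternative fits, among them DESeq2 (adjusted p = 0.0348), and ranged from 0.27 to 0.65. Single libraries moved these values. Without C2 replicate 2, the lowest, the 24 h value was 0.27 and C2 against C1 was -0.60, which was called (adjusted p = 0.0349). Without C2 replicate 1 the 24 h value was 0.65 (adjusted p = 0.0039), C2 against C1 was -0.98 (adjusted p = 0.00481) and the difference between responses was called (0.91, adjusted p = 0.0159). Without T2 replicate 1 the 24 h value was also called (0.54, adjusted p = 0.0465). In the core gene RPL22 the same 3 values were -0.19 at 12 h, -0.09 at 24 h and -0.10 for C2 against C1, all uncalled. RPL22 was the more abundant of the 2, at 233 TPM against 60.9 TPM for RPL22L1.

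RPS27L, a relative of RPS27 known as a p53 target, and RPL36AL, a near copy of RPL36A, were not called in any comparison by the edgeR fit of 4 group means without covariates. RPS27L was called at 12 h with the replicate block (adjusted p = 0.00696). For any difference among the 4 groups it was called in 3 of 24 alternative fits: DESeq2, the length slope and the library median of the members as covariates (adjusted p from 0.0143 to 0.298 over the 24). RPS27L had 158, 178 and 153 CPM in C1, 131, 153 and 143 in T1, 145, 135 and 149 in C2 and 123, 143 and 132 in T2. Its log2 fold change was -0.20 ± 0.09 at 12 h (95% confidence interval -0.38 to -0.01, adjusted p = 0.182), -0.11 ± 0.09 at 24 h (adjusted p = 0.41) and -0.19 ± 0.09 for C2 against C1 (adjusted p = 0.407). It had the smallest within-group spread of all members, with an SD of 0.0464 on log2(TPM + 1), and its SD was larger, 0.0779, once the library median of the members was subtracted. RPL15 (0.0479 before and 0.0822 after) and RPL23A (0.056 and 0.0896) did the same, while the median member went the other way. RPL36AL, named to complete the paralogs, had -0.07 ± 0.14 at 12 h and 0.14 ± 0.14 at 24 h.

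**Figure D4:**
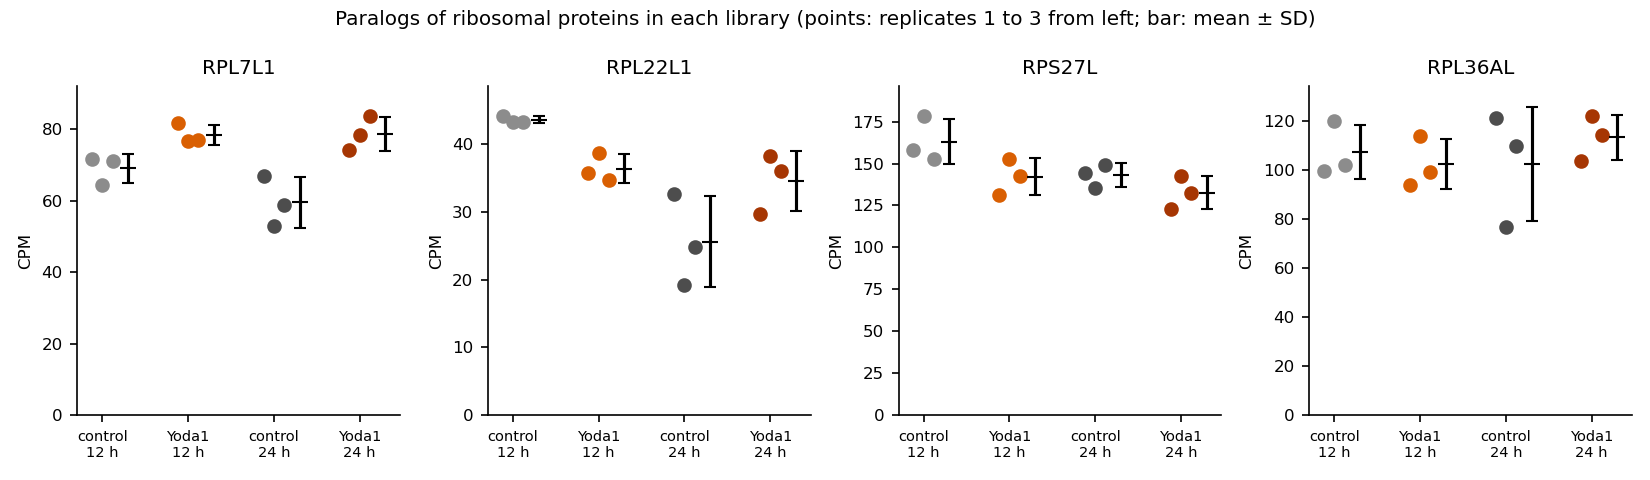
CPM of RPL7L1, RPL22L1, RPS27L and RPL36AL in each of the 12 libraries, with group mean ± SD (n = 3). RPL7L1 is higher in every treated library than in every control library of its time (64.4 to 71.7 against 76.7 to 81.7 CPM at 12 h, 52.9 to 67.0 against 74.1 to 83.7 CPM at 24 h), and RPL22L1 has its lowest group mean in C2.

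The remaining comparisons gave no call. The difference between the responses at 24 h and 12 h called no member, against 0.155% of all tested genes, with 1 member (RPL22L1) at an unadjusted p under 0.05 and none by DESeq2 or limma voom. It was positive for 72 of 82 members with a median of 0.10, and the median was 0.00 without C1 replicate 2. C2 against C1, which differ in time without Yoda1, called no member against 0.162% of all genes, with 3 members (RPL22L1, RPL7L1 and RPS27L) at an unadjusted p under 0.05; DESeq2 called RPL22L1 and limma voom none. The median there was -0.08 and 76 of 82 members were negative, but it was 0.01 both without C1 replicate 2 and without C2 replicate 2. The C2 libraries of RPL22L1 and RPS27L lay wholly below those of C1, against 6.85% of all genes, and those of no member lay wholly above, against 7.42%. T2 against T1 called no member against 0.127% of all genes, no member had an unadjusted p under 0.05, and neither DESeq2 nor limma voom made a call. In RPS24 (ENSCAFG00845014074) every T2 library was above every T1 library, against 10.9% of all genes, while no member had every T2 library below, against 11.5%. It had 709, 754 and 724 CPM in T1 and 759, 871 and 846 CPM in T2, a log2 fold change of 0.18 ± 0.09 (adjusted p = 0.603).

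Genes whose products build ribosomes gave many calls at 24 h, and the ribosomal protein genes gave 1. All related lists were chosen with earlier results of these data known, so their counts are a description. In a list of ribosome assembly factors, 30 of 50 tested genes rose at 24 h and 1 fell, where 8.96% of all tested genes were called higher, and the list's median log2 fold change was 0.31. DDX21, a nucleolar helicase, rose by 0.64 ± 0.09 (adjusted p = 0.000684), WDR43, a factor of the early small subunit precursor, by 0.54 ± 0.07 (adjusted p = 0.000681) and GNL3, a nucleolar GTPase, by 0.46 ± 0.07 (adjusted p = 0.000819). RRS1 and RPF2, which place RPL5, RPL11 and the 5S RNA in the large subunit precursor, rose by 0.52 ± 0.08 and 0.24 ± 0.08. NLE1, which acts late in large subunit assembly, fell by 0.29. The count of genes that rose was 19 to 29 over the 12 fits that left out 1 library, lowest without T2 replicate 3, a fit that called 1134 of 14400 genes in place of 2630 of 14169. At 12 h 6 of the 50 rose and none fell, with a median of 0.10, where 3.01% of all tested genes were called higher. No assembly factor was called at 12 h in the fits without any one of C1 replicates 1 to 3 or T1 replicates 1 and 3. Over all genes those fits made fewer calls too, from 167 of 14399 to 435 of 14381, against 990 of 14169 with all 12 libraries. With the replicate block 22 rose and 1 fell, in the fit that called 32.3% of all genes. The difference between the responses at 24 h and 12 h called 0 of the 50, against 0.155% of all tested genes, with a list median of 0.17. The list's median was -0.12 for C2 against C1 and 0.07 for T2 against T1.

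Of 11 tested genes of RNA polymerase I and its cofactors, 6 rose at 24 h, where 8.96% of all tested genes were called higher, and none fell. Among the 6 were POLR1A, the largest subunit, with 0.57 ± 0.08 (adjusted p = 0.00075), and TCOF1, a nucleolar cofactor, with 0.57 ± 0.09 (adjusted p = 0.00117). Without T2 replicate 2 or 3 the count was 3. At 12 h POLR1A and TCOF1 were the 2 that rose, where 3.01% of all tested genes were called higher. Neither was called without C1 replicate 2 or 3 or T1 replicate 1 or 3, fits that called 167 to 435 genes in all, against 990. The difference between the responses called 0 of the 11. This list's median was -0.09 for C2 against C1 and 0.01 for T2 against T1. Dedicated chaperones and importers of ribosomal proteins had 1 gene that rose, NPM1 (0.35 ± 0.08), and 1 that fell, PDCD2 (-0.31 ± 0.09), of 10 tested at 24 h, close to the 8.96% of all tested genes called higher and 9.61% called lower, and none at 12 h. Neither was called without T2 replicate 2 or 3. With the replicate block 1 gene of this list rose at 12 h, in the fit that called 32.3% of all genes.

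Other transcripts with a TOP tract or a ribosomal role gave 4 calls of 25 at 24 h, all higher, and none at 12 h. Over all tested genes, 8.96% were called higher at 24 h and 3.01% at 12 h. The 4 were VIM, the intermediate filament protein vimentin (0.87 ± 0.10), NPM1, which stands in both lists, and 2 IDs of NACA, a chaperone at the ribosome's exit tunnel (0.30 ± 0.09 and 0.29 ± 0.09). The list's median was 0.06, and 1 gene was called without T2 replicate 2 or 3. Without C2 replicate 2 the median was -0.03, with 2 genes called higher and 1 lower. With the replicate block 2 rose and 2 fell at 12 h, in the fit that called 32.3% of all genes. VIM itself was lower in C2 than in C1 by a log2 fold change of -0.77 ± 0.10 (adjusted p = 0.0175).

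Of 23 genes in mTORC1 and TOP translation control, 2 rose and 6 fell at 24 h. Of all tested genes 8.96% were called higher and 9.61% lower. RPTOR, the mTORC1 scaffold, rose by 0.40 ± 0.06 and LARP1B, a relative of LARP1, by 0.49 ± 0.08. SESN2 (-0.88 ± 0.10), DDIT4 (-0.81 ± 0.18), DEPTOR (-1.69 ± 0.31), CASTOR1 (-0.63 ± 0.14) and AKT1S1 (-0.31 ± 0.09), which are known to restrain mTORC1, and PDCD4 (-0.79 ± 0.21), an inhibitor of translation initiation, fell. Without T2 replicate 3 the lower count was 3. The difference between the responses at 24 h and 12 h called 1 gene of this list, against 0.155% of all tested genes. It was SESN2, which also stands in the p53 list, at -0.85 ± 0.15 (edgeR adjusted p = 0.0422). At 12 h 3 rose (RPTOR, LARP1B and FLCN) and none fell, where 3.01% of all tested genes were called higher. With the replicate block 7 rose and 3 fell, in the fit that called 32.3% of all genes. Without C1 replicate 1 or 2 or T1 replicate 1 or 3 none was called at 12 h. Those fits called 167 to 435 genes in all, against 990. MYC, the transcription factor best known for driving ribosome genes, was higher in T2 than in C2 by 0.22 ± 0.07 (adjusted p = 0.0434). Of the 8 tested genes of its network, MLXIP was the 1 that fell. MYC lost its call without C1 replicate 1 or 3, C2 replicate 3, T1 replicate 1 or any 1 of the T2 libraries. Its mean was 294 CPM in C1, 285 in T1, 241 in C2 and 281 in T2. For MYC, C2 against C1 was -0.29 ± 0.07 (edgeR adjusted p = 0.145) and T2 against T1 was -0.02 ± 0.07. In the p53 list 1 of 15 rose (XPC) and 2 fell (SESN2 and CCNG1) at 24 h, with 8.96% of all tested genes called higher and 9.61% lower. In the list of ribosome collision and quality control 3 of 18 rose, among them ABCE1, the ribosome recycling factor (0.34 ± 0.08), and 1 fell. Without T2 replicate 3 none rose in the former list and 1 rose in the latter.

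**Figure D5:**
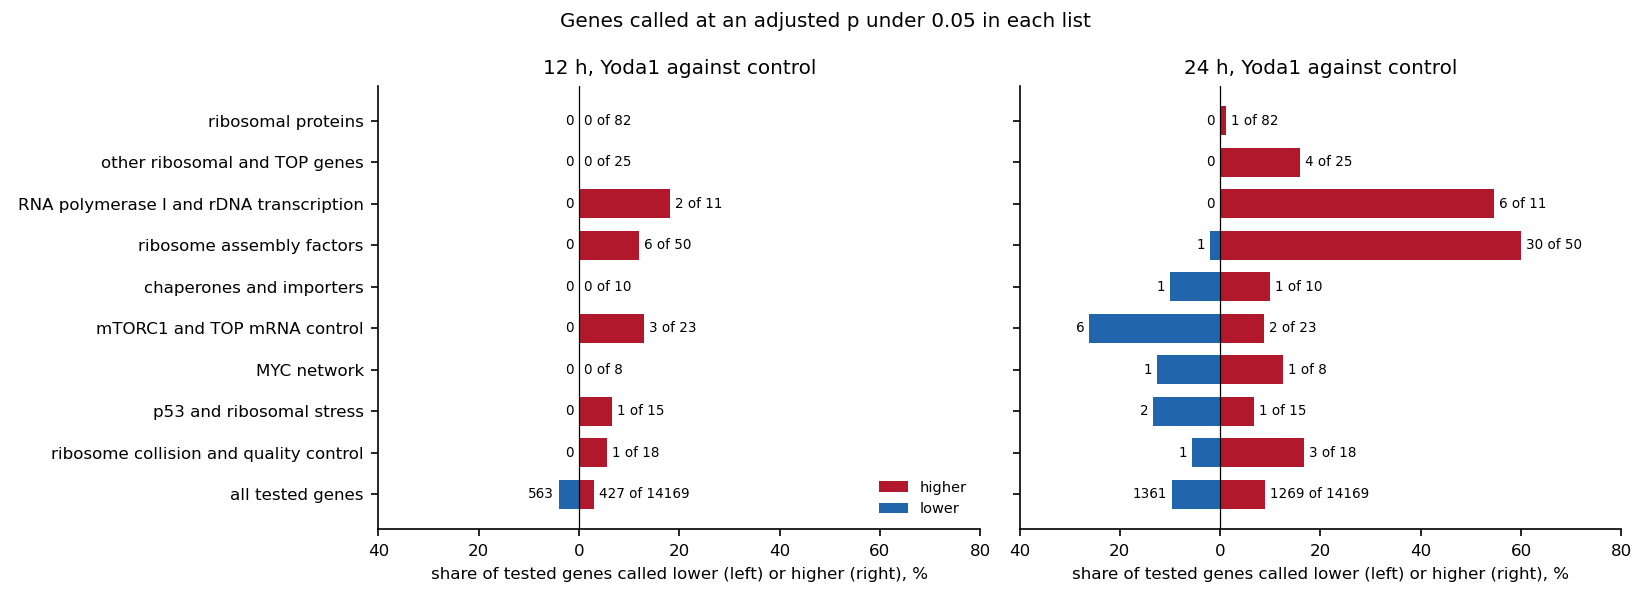
Share (%) of tested genes called higher (right) or lower (left) at an adjusted p under 0.05 with Yoda1 at 12 h and 24 h, for the ribosomal proteins, each related list and all tested genes, with the counts beside the bars. At 24 h 30 of 50 assembly factors, 6 of 11 RNA polymerase I genes and 1 of 82 ribosomal proteins are called higher, against 8.96% of all tested genes.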

How the data were processed

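Polyadenylated RNA of 12 MDCK libraries was read as 101 bp pairs with strand kept, per the labels' protocols. The tools in the submitters' processing notes are RSEM 1.3.3, STAR 2.7.10b and fastp 0.23.4. Their genome build is not named in these sources. The authors deposited expected counts per gene ID, not normalized, of which 91.1% of all values and 38.5% of the members' values were whole. They also deposited TPM, in which each library has the same total, and a sample sheet (unit: other) with condition, time and lane. Lane was 5 in all libraries. No reference sequence of the files' build was used, so neither coordinates nor sequences are printed.

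Expected counts were rounded, filtered with filterByExpr, scaled by TMM and fitted with edgeR 4.0.16 (R 4.3.3) in 1 robust quasi-likelihood model of 4 group means over 12 libraries. P-values were adjusted by Benjamini-Hochberg over all 14169 genes, with calls made at an adjusted p under 0.05. The common biological coefficient of variation was 13.3%. CPM values use the TMM-scaled library size, and confidence intervals are 95%. Alternatives were DESeq2 1.42.0, limma voom (limma 3.58.1), other scalings, no filter, log2(TPM + 1) and log2(TPM + 0.1) in limma, the 6 libraries of a comparison alone, a replicate block, and each library left out. Summed copies of a symbol and 2 library covariates (length slope, median of the members) were chosen after seeing the data. The script was tested on simulated data.

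Same-numbered C1 and T1 libraries deviated together (correlations over genes 0.153, 0.283 and 0.115), so the numbers were taken as pairs at 12 h. The pairing comes from the data, not the labels, and from the same libraries that the block fit then used. Libraries of unlike number could deviate together as much: C1 replicate 2 and C2 replicate 3 had 0.276. Whether the numbers mark pairs was not tested. The main fit does not use them, and the block fit at 12 h holds only if they do.

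The members and gene lists were chosen with earlier results of these data known. Named members are the 5 highest and 5 lowest by level, those called, the 3 highest and 3 lowest fold changes of T1 against C1, T2 against C2 and C2 against C1, the 3 largest and 3 smallest within-group SDs, and a set of proteins with known special roles and paralogs; each list names its called genes with the smallest p. Other members are named beside counts, after their values were seen.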

Additional observations from a re-analysis of the deposited data

How the results depend on the processing

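Depth was ample for most members; what limits the results is 3 libraries per group, shifts shared by nearly all members within a library, and further IDs whose reads cannot be assigned. No alternative reversed a call. The count of members called at 12 h was 0 except in the 6 libraries alone (1) and with the replicate block in them (14). At 24 h it was 2 with DESeq2, with library size as the only scaling and on both log2(TPM) scales, 3 with the library median of the members as a covariate, and 0 in the 6 libraries alone. With the replicate block at 24 h, where the numbers were not taken as pairs (correlations 0.0631, -0.0767 and -0.0841), it was 0: RPL7L1 had 0.41 with an adjusted p of 0.106, and that fit called 316 of 13878 genes and 5 of 50 assembly factors. For C2 against C1 the count was 1 with DESeq2 and with the library median of the members as a covariate. For T2 against T1 it was 2 with the replicate block, RPS24 higher and RPS14 lower. For any difference it was 5 with the library median of the members as a covariate and 3 with DESeq2 or with the length slope as a covariate, each of which added RPS27L. With the block in all 12 libraries no count moved.

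Leaving out 1 library gave 0 members called at 12 h in each fit, 0 to 2 at 24 h, 0 to 1 for the difference between responses, 0 to 1 for C2 against C1 and 0 to 2 for any difference. The median of the members ran from -0.157 to 0.0106 at 12 h, from -0.0903 to 0.0909 at 24 h, from 0.00332 to 0.175 for the difference, from -0.16 to 0.01 for C2 against C1 and from -0.03 to 0.09 for T2 against T1. Summed CPM in place of summed TPM was 47424 in C1, 44875 in T1, 45183 in C2 and 45288 in T2, against 153430, 151902, 149632 and 154732 TPM, since CPM does not divide by length. The planned count without RPS19BP1 gave nothing, as no ID has that symbol. The cause of these changes was not tested.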
